A study of Mus musculus with 21 samples.

Results

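Loss of STING in the host was compared with the wild-type state in sham-injected mouse tumors, in 13 of the 21 libraries of the series. The first group held 4 libraries labelled TMEM173gt, from mice without functional STING, whose Tmem173 gene, which encodes STING, carries the goldenticket mutation. The second group held 9 libraries from wild-type C57BL/6 mice. All mice were labelled male and C57BL/6. Each received 500000 LLC (Lewis lung carcinoma) cells, an established line from a mouse lung tumor, under the skin of the right flank, and a PBS injection into the grown tumor. The 8 libraries of tumors injected with a STING agonist were left out of the fit. All 750 probes of a NanoString panel, which counts RNA molecules of immune and tumor genes with barcoded probes, were measured in total RNA of whole tumors. The deficiency lies in the host cells, and the implanted LLC cells, which carry their own Tmem173 gene, were the same line in both groups. The labels give lung as the tissue, but the tumors grew in the flank, and the panel has no probe for the surfactant genes that define lung epithelium. Nothing in the labels ties each library to a mouse of its own, so the p-values cover only the spread among these libraries, which may be technical.

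STING sits in the membrane of the endoplasmic reticulum and is activated by cGAMP, a dinucleotide that the enzyme cGAS makes when it meets DNA in the cytosol. Active STING recruits the kinase TBK1, which phosphorylates the transcription factor IRF3, and IRF3 switches on type I interferon. Secreted interferon then signals through its receptor, JAK kinases and STAT transcription factors to a large set of interferon-stimulated genes, many of which carry in their promoters a sequence called the interferon-stimulated response element. STING also activates NF-kB. In tumors, DNA of dying cells taken up by host immune cells is a known trigger of this pathway.

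Promoters of 5 called genes are shown, chosen because they hold a match to the core letters of that element. A match is a description and not a tested site. Each sequence is the 250 bases before the transcription start, read 5′ to 3′ on the gene's strand, from RefSeq on GRCm38.p6, and the capitals mark matches to GAAA, any 2 bases, GAAA on either strand (seen as TTTC, any 2 bases, TTTC when the match is on the other strand). Ifit3 lies at chr19:34583279-34583528 and Ifit1 at chr19:34640639-34640888, both on the forward strand. Rsad2 at chr12:26456453-26456702, Isg15 at chr4:156200819-156201068 and Bst2 at chr8:71537473-71537722 are on the reverse strand.
Ifit3: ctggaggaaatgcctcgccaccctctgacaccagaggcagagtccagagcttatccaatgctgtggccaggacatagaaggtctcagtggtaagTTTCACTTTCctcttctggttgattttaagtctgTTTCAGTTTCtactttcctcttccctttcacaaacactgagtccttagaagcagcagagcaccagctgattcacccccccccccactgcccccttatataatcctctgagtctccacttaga
Ifit1: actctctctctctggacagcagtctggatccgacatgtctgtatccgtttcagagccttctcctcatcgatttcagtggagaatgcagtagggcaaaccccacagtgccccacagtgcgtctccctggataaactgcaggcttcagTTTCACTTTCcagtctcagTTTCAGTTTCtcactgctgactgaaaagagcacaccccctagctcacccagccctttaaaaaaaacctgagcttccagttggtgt
Rsad2: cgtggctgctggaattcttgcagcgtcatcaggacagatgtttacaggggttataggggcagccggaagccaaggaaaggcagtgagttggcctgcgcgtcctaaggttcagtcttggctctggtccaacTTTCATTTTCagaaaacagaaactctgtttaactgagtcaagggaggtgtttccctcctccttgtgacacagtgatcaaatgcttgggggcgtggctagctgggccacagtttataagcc
Isg15: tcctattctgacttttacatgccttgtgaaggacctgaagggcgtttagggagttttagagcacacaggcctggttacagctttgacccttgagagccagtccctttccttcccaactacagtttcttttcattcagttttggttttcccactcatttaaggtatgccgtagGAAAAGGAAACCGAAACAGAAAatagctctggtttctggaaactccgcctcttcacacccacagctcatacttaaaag
Bst2: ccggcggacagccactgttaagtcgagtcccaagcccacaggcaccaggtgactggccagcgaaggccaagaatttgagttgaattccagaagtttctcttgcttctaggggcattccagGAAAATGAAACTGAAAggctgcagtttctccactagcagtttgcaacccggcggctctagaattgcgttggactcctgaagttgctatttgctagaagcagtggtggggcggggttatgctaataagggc

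Ifit3 and Ifit1 each hold 2 matches, on the opposite strand, that begin 156 and 122 bases before the start in Ifit3 and 104 and 85 bases before it in Ifit1. Rsad2 holds 1 match, 120 bases before its start. The 3 matches of Isg15 overlap one another in 1 stretch, as do the 2 matches of Bst2.

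Each deposited value is a number of molecules multiplied by a library factor, and the counts recovered by undoing it summed to between 256573 and 389302 over the 13 libraries. The median probe was 47.2 ± 10.5 (SD, n = 4) in STING-deficient and 64.2 ± 5.31 (SD, n = 9) in wild-type tumors, lower in the first (exact permutation test, two-sided, p = 0.00559, and 0.028 when adjusted over 5 library measures), and the recovered total did not pass the threshold (adjusted p = 0.368). STING-deficient libraries differed among themselves. Replicate 2 was the lowest of the 4 at 304 of 555 tested probes and replicate 1 the highest at 301, and the part of either in any result below was tested only by leaving it out. Tmem173 itself had 69.4, 42.6, 46.6 and 43.1 in STING-deficient tumors, against a lowest value of 41.8, a median of 53.7 and a highest of 77.8 in wild-type tumors. The groups overlap fully (log2 difference -0.11 ± 0.18 (SE), adjusted p = 0.756, and 0.09 with TMM scaling), and since the goldenticket allele is a point mutation, this probe does not check the labels.

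Interferon-stimulated genes made up most of the large differences. Testing was limited to the 555 probes that reached 20 in 4 or more of the 13 libraries, and a probe was called at an adjusted p under 0.05 (limma on log2(value + 1), Benjamini-Hochberg over the tested probes). In STING-deficient tumors 58 probes were lower, 10.5% of those tested, and 2 were higher, 0.36%. Of the 30 tested interferon-stimulated genes 25 were lower and 0 higher, with a median log2 difference of -1.81, beside -0.24 over all tested probes. All 13 called falls past 4-fold were in this list except that of Cfd, and the 4 past 8-fold were Ifit3, Ifit1, Ifi44 and Rsad2. In 20 of the 25 genes every STING-deficient library lay below every wild-type library, which held for 5.95% of tested probes. Fewer cells that express a gene and less RNA per cell cannot be told apart in whole tumors, here and in all that follows.

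**Figure D1:**
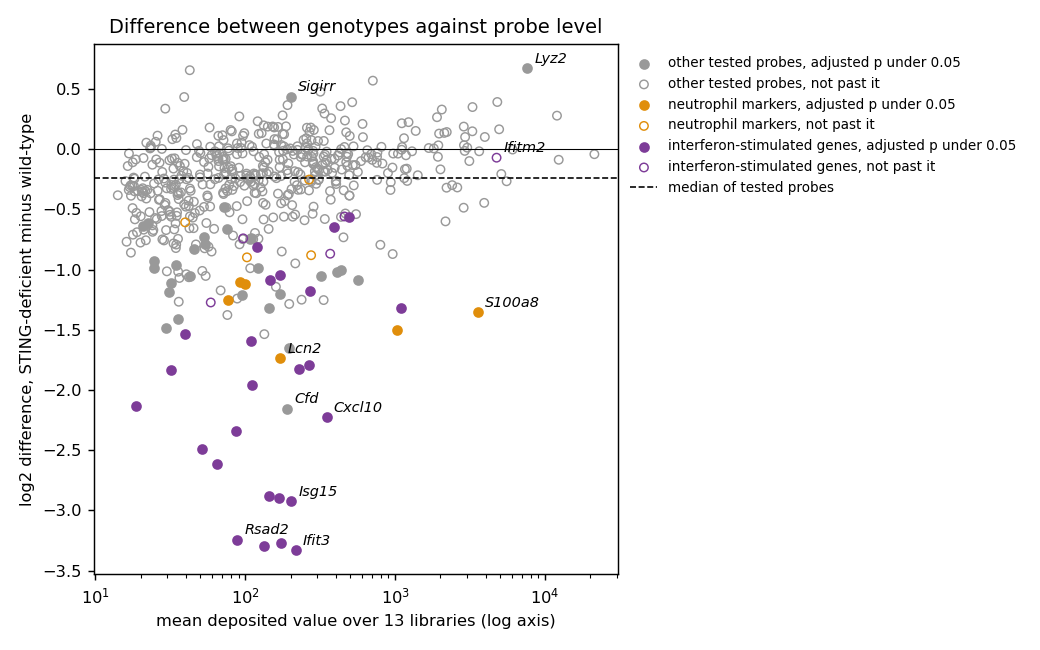
Log2 difference (STING-deficient minus wild-type sham, y axis) of each of the 555 tested probes against its mean deposited value over 13 libraries (x axis, log scale), with interferon-stimulated genes and neutrophil markers coloured and called probes filled. Interferon-stimulated genes fill the range below -2, where Cfd is the only other called probe, and the dashed line marks the panel median of -0.24.

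The panel as a whole was shifted, and the calls depend on how that shift is treated. Of the tested probes 80.4% had a negative difference. With TMM scaling, which aligns libraries on the probes that differ least, the panel median was -0.04 with 11 probes higher (1.98%) and 37 lower (6.67%), and with each library scaled by its median probe it was 0.22 with 116 higher (20.9%) and 29 lower (5.23%). Interferon-stimulated genes kept 23 of the 25 calls under TMM, losing Herc6 and Ifi35, and 22 under median scaling, losing Ifi27 as well. Their median difference was -1.61 with TMM. Median scaling called 1 member of the list higher, Ifitm2, beside the 20.9% of all tested probes. Of all 58 lower calls, 34 stayed without STING-deficient replicate 2 (35 lower probes in all) and 57 without replicate 1 (119 lower in all).

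Ifit3, Ifit1 and Ifit2 encode proteins with tetratricopeptide repeats that bind viral RNA or translation factors. Ifit3 had values of 42.8, 16.9, 26.1 and 24.1 in STING-deficient tumors, against a lowest of 151, a median of 254 and a highest of 586 in wild-type tumors. It was 10.1-fold lower, the most of any gene (log2 difference -3.33 ± 0.35 (SE), adjusted p = 3.5e-05), and the groups were well apart. Ifit1 had 28.3, 5.41, 22.1 and 24.1 in STING-deficient tumors, against 94.1, 163 and 259 as lowest, median and highest of wild-type tumors. This was a 9.79-fold fall (adjusted p = 4.05e-05), with replicate 2 far below the other 3. Ifit2, at 135, 85.9, 71.1 and 92.9 against 239, 281 and 579, had a smaller log2 difference of -1.79 (adjusted p = 0.00031), again with no overlap.

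Rsad2, which encodes the antiviral enzyme viperin, had the smallest p of the panel. Its values were 14.6, 5.41, 8.68 and 25.7 in STING-deficient tumors, against 89.5, 121 and 161 as lowest, median and highest of wild-type tumors, a log2 difference of -3.24 ± 0.30 (SE, adjusted p = 1.94e-05). Cmpk2, a mitochondrial nucleotide kinase gene that lies next to Rsad2 in the genome, had 32.6, 18.3, 23.7 and 23.2 in STING-deficient tumors, against 95.0, 162 and 307 (-2.88 ± 0.30, adjusted p = 3.5e-05). The neighbours thus differed to a similar degree, and both sets of libraries were fully apart. Ifi44, a gene that interferon induces strongly, had 45.4, 12.2, 18.9 and 21.6 in STING-deficient tumors, against 119, 187 and 428 in wild-type tumors (-3.27 ± 0.37, adjusted p = 4.62e-05).

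Genes of the ISG15 system fell together with these. Isg15 encodes a ubiquitin-like protein that is attached to other proteins and is also secreted. It had 68.5, 16.9, 28.4 and 36.5 in STING-deficient tumors, against 132, 231 and 448 as lowest, median and highest of wild-type tumors (log2 difference -2.93 ± 0.34 (SE), adjusted p = 6.47e-05). Usp18, whose product removes ISG15 and restrains the interferon receptor, had 11.1, 8.80, 7.11 and 15.8 against 32.9, 58.3 and 128 (-2.49 ± 0.36, adjusted p = 0.00038). Herc6, the ISG15 ligase gene of the mouse, differed least of the 3, at 105, 58.9, 63.2 and 85.4 against 95.0, 131 and 209. The libraries overlap for Herc6 (-0.81 ± 0.21, adjusted p = 0.0228), and its call was lost with TMM scaling (adjusted p = 0.061) and without STING-deficient replicate 2 or 3.

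**Figure D2:**
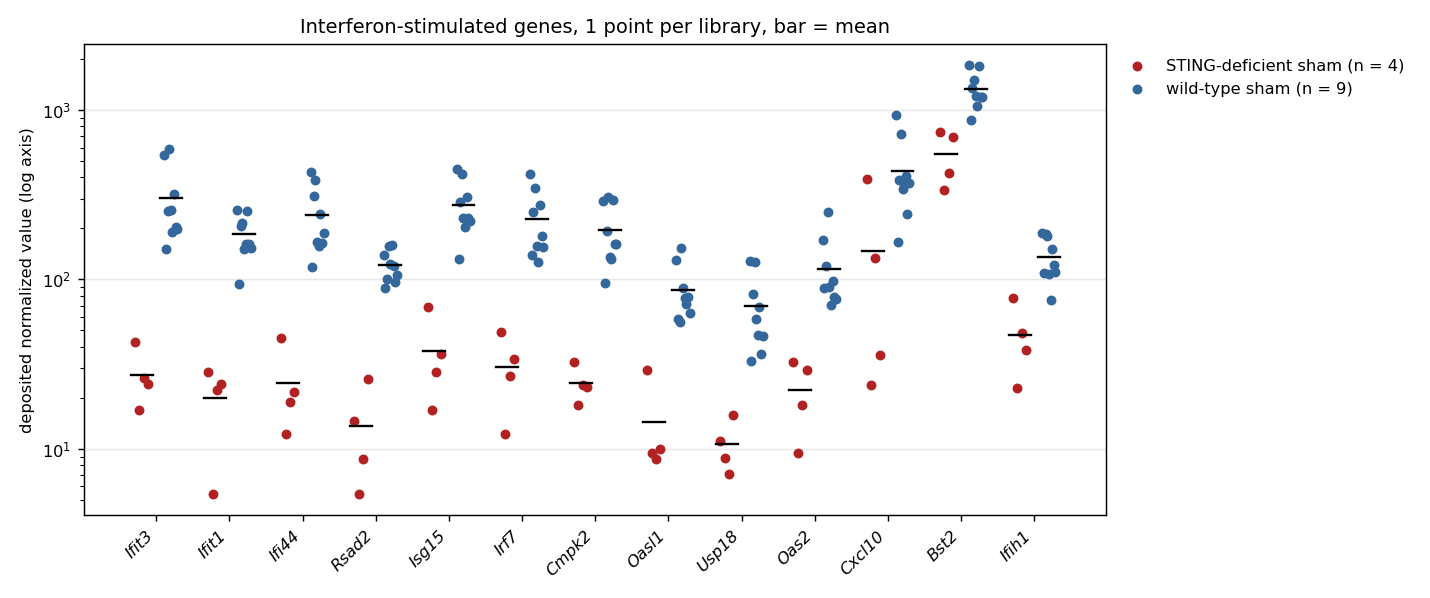
Deposited normalized values (y axis, log scale) of 13 interferon-stimulated genes, 1 point per library, with STING-deficient sham tumors (n = 4) left of wild-type sham tumors (n = 9) for each gene and a bar at the mean. From Ifit3 to Oas2 and in Bst2 the STING-deficient points lie below all wild-type points, while in Cxcl10 and Ifih1 the highest STING-deficient library reaches into the wild-type range.

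Antiviral effectors of other families were lower too. The oligoadenylate synthetase genes Oas2 and Oas3, whose products activate RNase L on double-stranded RNA, and Oasl1, which lacks that activity, fell by 2.34, 1.83 and 2.61 on the log2 scale (adjusted p = 0.000643, 0.00254 and 0.000116). Oasl1 had 29.1, 9.47, 8.68 and 9.95 in STING-deficient tumors, against 56.2, 78.2 and 153 as lowest, median and highest of wild-type tumors, and replicate 1 stood apart from the other 3 STING-deficient libraries. Bst2, the gene of tetherin, which holds budding viruses at the cell surface, had 745, 338, 426 and 695 in STING-deficient tumors against 869, 1209.9 and 1834 (-1.32 ± 0.23, adjusted p = 0.00208). Mx2, a GTPase gene, stayed low in all libraries, at 3.38 to 5.14 in STING-deficient and 12.8 to 56.5 in wild-type tumors (-2.13, adjusted p = 0.00123), so only a handful of molecules stand behind its lower values. Isg20, an exonuclease gene, fell by 1.04 (97.9 ± 16.7 against 203 ± 33.5, SD, n = 4 and n = 9, adjusted p = 0.00038). Xaf1, Ddx60, Ifi35 and Ifi27 were lower as well, with log2 differences of -1.96, -1.54, -0.65 and -0.56 (adjusted p = 0.00271, 0.00776, 0.0377 and 0.00802). For Ifi35 the call was lost with TMM scaling (adjusted p = 0.12).

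Several members of the list are themselves parts of the nucleic acid sensing and interferon signalling machinery. Among sensors, Ifih1 (MDA5) and Ddx58 (RIG-I) detect viral RNA and Zbp1 detects Z-form nucleic acid. Zbp1 had 166, 33.2, 68.7 and 96.2 in STING-deficient tumors, against 169, 291 and 441 as lowest, median and highest of wild-type tumors (-1.83 ± 0.33 (SE), adjusted p = 0.00258). Its replicate 1 came close to the lowest wild-type library. Ifih1 had 78.0, 23, 48.2 and 38.2 against 76.0, 122 and 188 (-1.59 ± 0.30, adjusted p = 0.00306), with replicate 1 just inside the wild-type range, and Ddx58 fell by 1.18 (adjusted p = 0.00742). These were the 3 of 10 tested genes of the cytosolic sensing list that were called; the list's median was -0.16, near the panel's. The kinase and factor directly below STING did not pass the test on the deposited scale, and both were called higher with median scaling (0.58 and 0.42, adjusted p = 0.0237 for Tbk1 and 0.0445 for Irf3), where 20.9% of probes were. Tbk1 had 85.7, 101, 118 and 102 in STING-deficient tumors, against 72.0, 100.5 and 107 (0.11, adjusted p = 0.637), and Irf3 averaged 206 ± 16.0 and 213 ± 17.6 (SD, n = 4 and n = 9, -0.04, adjusted p = 0.832, and 0.16 with TMM scaling). cGAS has no probe on the panel.

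Of the interferons themselves little could be measured. Ifnb1 was below the testing limit at 5.14, 4.06, 3.95 and 4.15 in STING-deficient tumors and between 5.85 and 21 in wild-type tumors. Each STING-deficient library thus lay under each wild-type library, but at a few molecules. The groups were also apart in the value under which only the weakest probes of a library fell. This value was 4.06 to 6.00 in STING-deficient and 6.16 to 9.72 in wild-type tumors. Whether the Ifnb1 gap exceeds this shift of the weakest probes was not tested. Ifna1 was called lower (18.8, 25.7, 30.8 and 19.9 in STING-deficient tumors, against 35.2, 50.3 and 84.0, adjusted p = 0.00742). Interferon-alpha genes are nearly identical in sequence, so what this probe read is uncertain. Ifng, the T and NK cell interferon, was not tested for low values, at 4.74 to 14.6 in STING-deficient and 7.49 to 14.0 in wild-type tumors.

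Downstream of the receptor, Irf7 and Stat2 were lower. Irf7, the factor that amplifies interferon transcription and is itself interferon-induced, had 48.8, 12.2, 26.8 and 34.0 in STING-deficient tumors, against 126, 181 and 418 as lowest, median and highest of wild-type tumors (-2.89 ± 0.37 (SE), adjusted p = 0.000124). Stat2, a transcription factor of type I interferon signalling, fell by 1.08 (81.7 ± 22.2 against 175 ± 50.5, SD, n = 4 and n = 9, adjusted p = 0.00754). Of the 20 tested genes of interferons, receptors and the JAK-STAT pathway 2 were called, Ifna1 and Stat2, a share close to the 10.5% of all tested probes, and the list's median was -0.19 (0.01 with TMM scaling).

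The interferon-stimulated genes that were not called had other patterns. Gbp5, a guanylate-binding protein gene, had 109 in replicate 1 and 6.77, 41.8 and 9.95 in the others, against 21, 61.1 and 139 in wild-type tumors (-1.27, adjusted p = 0.197). Ifitm2 averaged 4584 ± 549.9 and 4809.9 ± 505 (SD, n = 4 and n = 9, -0.07, adjusted p = 0.722), and its difference was 0.13 with TMM scaling. Ifitm1 and Siglec1, the gene of a macrophage lectin, had differences of -0.56 and -0.74 (adjusted p = 0.11 and 0.197), and Ifi44l and Mx1 were too low to test.

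Cxcl10, the chemokine that draws CXCR3-bearing T and NK cells, varied widely among STING-deficient libraries. It had 392, 23.7, 133 and 35.7 in STING-deficient tumors, against 165, 373 and 929 as lowest, median and highest of wild-type tumors. Replicate 1 exceeded the wild-type median and the other 3 lay below every wild-type library, so the log2 difference of -2.23 ± 0.61 (SE, adjusted p = 0.0344) rests on 3 libraries. Its call was lost without STING-deficient replicate 2 (adjusted p = 0.147) or 4, and without wild-type replicate 5 or 7.

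The libraries ranked alike over the list. STING-deficient replicate 1 was the highest of the 4 at 24 of the 30 tested interferon-stimulated genes and replicate 2 the lowest at 24. Replicates 1, 2, 3 and 4 lay below every wild-type library at 20, 30, 28 and 27 of the 30 genes. Over all 555 tested probes they did so at 82, 289, 159 and 180. The mean log2 value of the 30 tested genes, relative to the wild-type mean, was -1.12, -2.51, -1.86 and -1.75 in STING-deficient replicates 1 to 4. In wild-type tumors it ran from -0.50 in replicate 2 to 0.62 in replicate 1, and replicate 4 stood beside replicate 1 at 0.58.

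**Figure D3:**
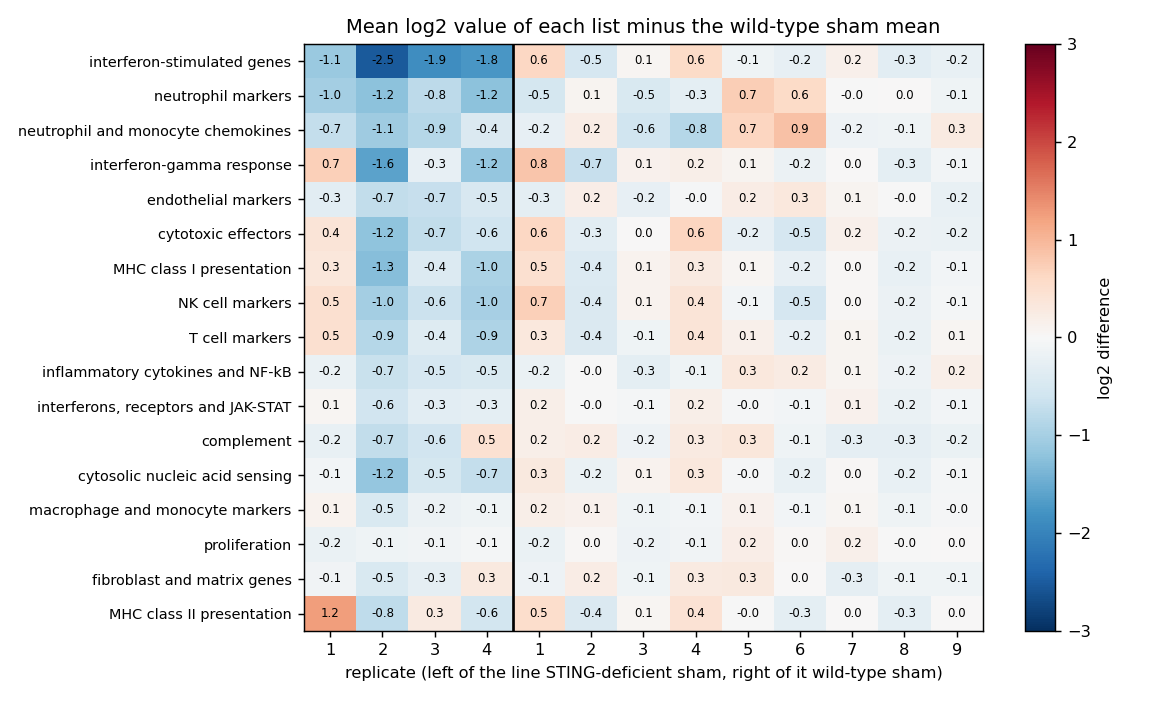
Mean log2 value of the tested members of 17 gene lists (rows) in each library (columns, STING-deficient left of the line and wild-type right of it), minus the wild-type mean, as colour and number. Interferon-stimulated genes are between -2.51 and -1.12 in all STING-deficient libraries, neutrophil markers between -1.24 and -0.78, 8 of the 17 lists are above 0 in STING-deficient replicate 1, and all 17 are below 0 in replicate 2.

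The promoter motif was more frequent among these genes than in the rest of the panel, as a description with no test. Of the 25 called interferon-stimulated genes 20 had a RefSeq promoter window, from 250 bases before to 50 after the start, and 11 of these (55.0%) held this motif on either strand. Among the other genes called lower 3 of 25 with a window did (12.0%), among tested genes not called lower 27 of 366 (7.38%), and among all genes with a RefSeq window it was 3.99%. Beside the 5 promoters printed above, the motif was found for Oas3, Ifih1, Ddx58, Stat2, Ddx60 and Cxcl10. No match was found in the windows of Cmpk2, Ifi44, Oasl1, Irf7, Ifit2, Isg20, Xaf1, Herc6 and Ifi35, which says only that these letters are not there.

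Neutrophil markers were the other group with many calls. Of 10 tested markers 6 were lower (Lcn2, Il1r2, Fpr2, Ptgs2, S100a8 and Cxcr2), beside 10.5% of all tested probes. All 10 had negative differences, as had 80.4% over the panel, and the median was -1.11 against the panel's -0.24. Summed over all 15 panel members of the list, tested or not, values were 2427 to 3449 in STING-deficient and 3337 to 12813 in wild-type tumors. S100a8 alone made up 1328 to 2254 and 1665 to 8489.7 of these sums. The granule genes Mpo, Elane, Camp and Ltf and the receptor gene Cxcr1 were below the testing limit, and no marker was at 0. The part of neutrophil number in the interferon result was not tested. With TMM scaling 3 of the 6 remained (Lcn2, Il1r2 and Fpr2, median -0.91), and without STING-deficient replicate 2, the library with the lowest median probe, 2 remained (Lcn2 and Il1r2). Median scaling kept 1 (Lcn2), a fit on all 21 libraries kept 0, and DESeq2 kept all 6.

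Lcn2 encodes lipocalin-2, an iron-sequestering protein of neutrophil granules and inflamed epithelium. It had 38.6, 54.1, 79.7 and 68.8 in STING-deficient tumors, against 86.5, 199.7 and 433 as lowest, median and highest of wild-type tumors, and was 3.33-fold lower with no overlap (adjusted p = 0.00742). S100a8, a calcium-binding alarmin that neutrophils hold in bulk, had 1328, 1350.5, 2254 and 1359 against 1665, 3628 and 8489.7 (-1.35 ± 0.37 (SE), adjusted p = 0.0332). Here replicate 3 lay inside the wild-type range, and wild-type replicates 5 and 6 stood above all other libraries at 8489.7 and 7982. Cxcr2, the receptor that recruits neutrophils, averaged 35.5 ± 7.78 and 95.1 ± 49.6 (SD, n = 4 and n = 9, adjusted p = 0.0379). The interleukin-1 decoy receptor gene Il1r2 and the formyl peptide receptor gene Fpr2 were 2.17-fold and 2.15-fold lower (adjusted p = 0.00754 and 0.0158). Ptgs2, the gene of cyclooxygenase-2, which other cells express too, had 283, 459, 339 and 592 against 495, 1087 and 2708 (-1.50, adjusted p = 0.0231). The other markers missed the threshold, Csf3r at -0.90 (adjusted p = 0.0682), Fcgr4 at -0.88 (adjusted p = 0.0884), Trem1 at -0.61 (adjusted p = 0.244) and Mmp9 at -0.25 (adjusted p = 0.83).

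**Figure D4:**
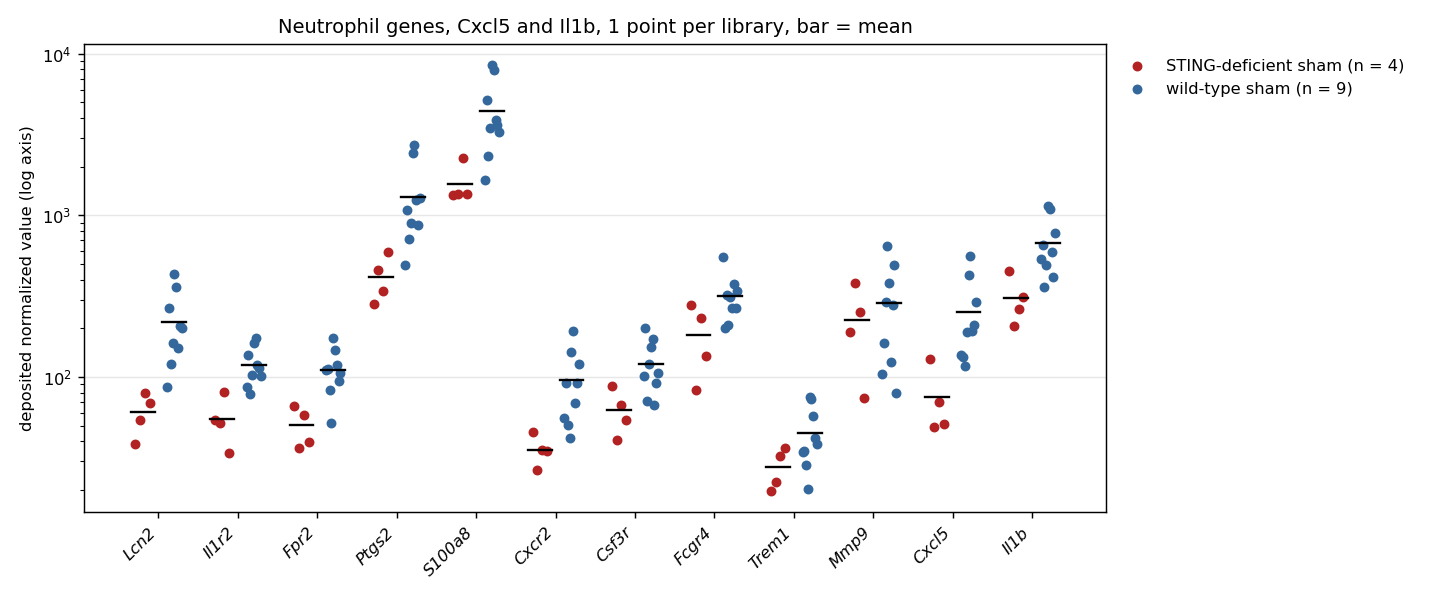
Deposited normalized values (y axis, log scale) of 10 neutrophil markers, Cxcl5 and Il1b, 1 point per library, with STING-deficient sham tumors (n = 4) left of wild-type sham tumors (n = 9) and a bar at the mean. The groups are apart for Lcn2 and overlap for the others, and wild-type values spread over several-fold in S100a8, Ptgs2, Cxcr2, Mmp9 and Cxcl5.

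Chemokines that attract neutrophils and monocytes varied widely among libraries. Cxcl5, a CXCR2 ligand, was the 1 of 14 tested members called, with 129, 48.7, 69.5 and 51.4 in STING-deficient tumors against 117, 193 and 557 as lowest, median and highest of wild-type tumors (-1.65 ± 0.40 (SE), adjusted p = 0.0158). The call was lost without STING-deficient replicate 2 (adjusted p = 0.072) or 4. The CXCR2 ligands Cxcl1, Cxcl2 and Cxcl3 had differences of -1.25, -1.54 and -1.24 that did not pass the test (adjusted p = 0.135, 0.129 and 0.22). For Cxcl2 the values were 28.3, 41.3, 37.9 and 73.8 in STING-deficient tumors, against 30.6, 123 and 460.4 in wild-type tumors, and 3 of the 4 STING-deficient libraries lay inside the wild-type range. DESeq2 on the recovered counts called 3 of the 14 members lower, Cxcl2 among them, and edgeR called 1. Over all 555 tested probes DESeq2 called 50 lower and edgeR 36. Cx3cl1, which attracts monocytes and NK cells, ran the other way at 0.66 (adjusted p = 0.139, and 0.0396 with TMM scaling). The list's median was -0.90. Its mean log2 score was highest in wild-type replicates 5 and 6, at 0.66 and 0.88, the same libraries that led the neutrophil markers at 0.74 and 0.57.

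Among inflammatory cytokines and NF-kB genes 3 of 21 were called, Il18, Ptgs2 and Il1b, and the list's median of -0.30 was close to that of the panel. Il18, an inflammasome-processed cytokine, had 87.4, 71.7, 67.1 and 66.4 in STING-deficient tumors, against 104, 121 and 150.1 as lowest, median and highest of wild-type tumors, a small fall with no overlap (-0.75 ± 0.13 (SE), adjusted p = 0.00135). Il1b had 451, 208, 262 and 311 against 362, 591 and 1148 (-1.08 ± 0.30, adjusted p = 0.0344), with replicate 1 above the lowest wild-type library. The Il1b call was lost with TMM scaling (adjusted p = 0.0597) and without STING-deficient replicate 2, 3 or 4 or wild-type replicate 2, 7 or 9.

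Endothelial markers were lower in 3 of 13 cases, Kdr, Icam2 and Tie1, beside 10.5% of all tested probes. All 13 differences were negative, as were 80.4% over the panel, and the median was -0.59. Median scaling kept 1 of the 3 calls (Kdr), and the fit on all 21 libraries kept 0. Kdr encodes VEGF receptor 2, the main receptor for vessel growth. It had 25.7, 16.2, 17.4 and 22.4 in STING-deficient tumors, against 23.8, 41.3 and 53.7 as lowest, median and highest of wild-type tumors (-0.96 ± 0.20 (SE), adjusted p = 0.00742), and 1 wild-type library, replicate 9, reached into the STING-deficient range. Icam2 and Tie1, an adhesion molecule and a receptor of endothelium, fell by 0.79 and 0.73 (adjusted p = 0.00742 and 0.0379), and the Tie1 call was lost with TMM scaling (adjusted p = 0.125). Pecam1 had 41.1, 35.2, 41.1 and 39.0 against 45.4, 54.5 and 91.0, with no overlap, but missed the threshold (-0.61, adjusted p = 0.0561), as did Vwf (-0.56, adjusted p = 0.0665). Cxcl12, a stromal chemokine whose receptor is CXCR4, averaged 225 ± 28.2 and 492 ± 221 (SD, n = 4 and n = 9, adjusted p = 0.0403), and its receptor gene Cxcr4 averaged 72.9 ± 10.9 and 125 ± 28.9 (adjusted p = 0.0199). Both of these calls were lost with TMM scaling.

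Complement had 2 of 20 genes lower, a share close to the 10.5% of all tested probes, and a median of -0.16 (0.04 with TMM scaling). Cfd, or adipsin, the protease that starts the alternative pathway and that fat cells secrete in quantity, had 27.4, 75.1, 45.8 and 51.4 in STING-deficient tumors, against 107, 195 and 503 as lowest, median and highest of wild-type tumors. It was 4.45-fold lower with no overlap (adjusted p = 0.00603), though wild-type libraries differed several-fold among themselves. Cfb, factor B of the same pathway, had 74.5, 23.7, 27.6 and 85.4 against 75.7, 101 and 203 (-1.21, adjusted p = 0.0447, and 0.0597 with TMM scaling). STING-deficient replicates 2 and 3 were low and replicates 1 and 4 near the lowest wild-type values.

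Most T, NK and cytotoxic genes did not pass the test. Limma called 0 of 11 T cell markers (median -0.39; 0 at an unadjusted p under 0.05) and 0 of 11 NK cell markers (median -0.48; 3 at an unadjusted p under 0.05), and edgeR and DESeq2 on the recovered counts called 0 in both lists. STING-deficient replicate 1 was the highest of its group for 9 of 11 T cell and 9 of 11 NK cell markers. Without it 4 T cell and 5 NK cell markers were called lower, beside 119 of all 555 tested probes. Klrd1, the CD94 receptor chain, had 246 in replicate 1 and 41.9, 107 and 58.9 in the others, against 75.8, 137 and 214 in wild-type tumors. Summed over the 20 on the panel, tested or not, T cell markers were 229 to 579 in STING-deficient and 363 to 544 in wild-type tumors. Their part in the interferon result was not tested. Granzyme genes Gzma and Gzmb had differences of -1.05 and -0.75 (adjusted p = 0.244 and 0.265). Tnfsf10, the death ligand TRAIL, was the 1 of 7 cytotoxic genes called, with 16.3, 14.9, 15.8 and 10.8 in STING-deficient tumors against 21.4, 26.7 and 45.4 (-0.93, adjusted p = 0.012).

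Antigen presentation genes followed the same division among STING-deficient libraries. For MHC class I limma called 0 of 14 genes (4 at an unadjusted p under 0.05, 0 with edgeR and DESeq2), at a median of -0.49, and 7 were lower without replicate 1. Without that library 119 of all 555 tested probes were lower. Tap1, the peptide transporter gene, had 305, 60.9, 139 and 83.8 in STING-deficient tumors, against 128, 238 and 383 in wild-type tumors (-0.95, adjusted p = 0.112). H2-T23 and the immunoproteasome gene Psmb8 had differences of -0.87 and -0.73 (adjusted p = 0.0954 and 0.199), and H2-D1, whose probe may read related class I genes, one of -0.45 (adjusted p = 0.244). For MHC class II the median was 0.01 with 0 of 10 called by limma, edgeR or DESeq2 (0 at an unadjusted p under 0.05), and replicate 1 exceeded every wild-type library at 8 of the 10. That library did so at 61 of all 555 tested probes. Cd74, the invariant chain, had 6701, 826, 2748 and 974 in STING-deficient tumors, against 862, 1512 and 3114, and its difference of 0.33 became -0.26 without replicate 1. H2-Ab1 likewise had 4106 in replicate 1 and 442 to 1446 in the others.

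Interferon-gamma response genes gave 1 call of 11 and a median of -0.73, with 5 lower without STING-deficient replicate 1 and 0 without replicate 2 (medians from -1.12 to -0.34 over libraries left out). Over all 555 tested probes 119 were lower without replicate 1 and 35 without replicate 2. The called gene was Cd274, which encodes PD-L1 and which both kinds of interferon induce, with 129, 44.7, 114 and 70.5 in STING-deficient tumors against 104, 210.0 and 378 as lowest, median and highest of wild-type tumors (-1.21 ± 0.33 (SE), adjusted p = 0.0344, 0.057 with TMM scaling and 0.146 without STING-deficient replicate 2). Irf1, an early target of interferon-gamma, had 539.7, 189, 321 and 237 against 232, 347 and 585 (-0.19, adjusted p = 0.689, and 0.02 with TMM scaling). The list's mean log2 score was 0.71 in STING-deficient replicate 1, near the wild-type maximum of 0.83, and -1.61 in replicate 2, below all others. The same replicate 1 lay below every wild-type library for 20 of the 30 tested interferon-stimulated genes, beside 82 of all 555 tested probes.

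**Figure D5:**
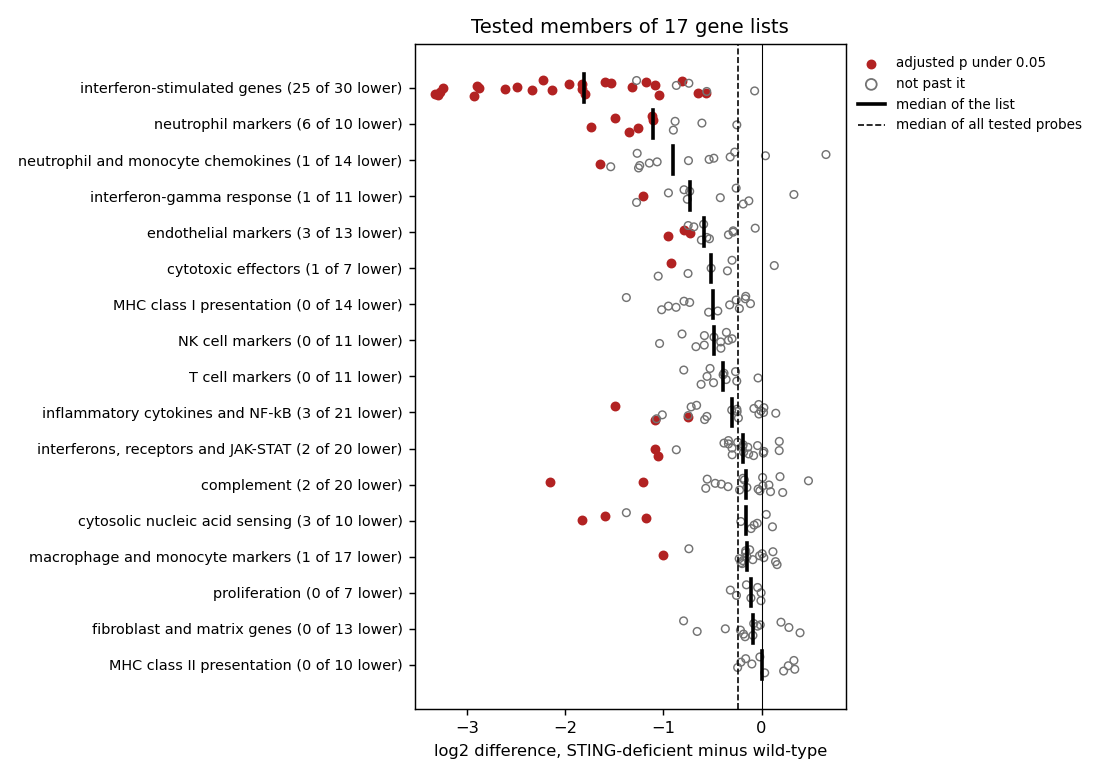
Log2 difference (STING-deficient minus wild-type sham, x axis) of every tested member of 17 gene lists (rows), with called members filled, the list's median as a bar and the panel median as a dashed line. The median is -1.81 for interferon-stimulated genes and -1.11 for neutrophil markers, and between -0.90 and 0.01 for the other 15.

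Of 17 macrophage markers 1 was called lower and 0 higher, while median scaling called 5 higher and 1 lower and DESeq2 1 in each direction. Over all 555 tested probes median scaling called 116 higher and 29 lower, and DESeq2 42 higher and 50 lower. Fcgr1, the high-affinity IgG receptor, which interferons induce, had 335, 160.4, 277 and 255 in STING-deficient tumors, against 369, 463 and 755 as lowest, median and highest of wild-type tumors (-1.0 ± 0.20 (SE), adjusted p = 0.00547), with no overlap, and was the 1 called. Cd163, a scavenger receptor of tissue macrophages, averaged 2349 ± 232 and 2141 ± 339.7 (SD, n = 4 and n = 9, 0.14, adjusted p = 0.482). Lyz2, the lysozyme gene of myeloid cells, was 1 of the 2 genes called higher, with 13823, 8292, 8311 and 10235 in STING-deficient tumors against 4864, 5847 and 10743 (0.67 ± 0.20, adjusted p = 0.0469). A single wild-type library, replicate 2, lay inside the STING-deficient range for Lyz2. Chil3 and Arg2, genes linked to alternative macrophage activation and also found in neutrophils, fell by 0.98 and 1.19 (adjusted p = 0.00742 and 0.0146), each with no overlap, and the Arg2 call was lost with TMM scaling (adjusted p = 0.0507).

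The other higher gene was Sigirr, an inhibitory receptor of the interleukin-1 and Toll-like receptor family, with 261, 219, 250.3 and 247 in STING-deficient tumors against 152, 182 and 225 as lowest, median and highest of wild-type tumors. The size was small (0.44 ± 0.12 (SE), adjusted p = 0.0383), and only the highest wild-type library overlapped. Both higher calls were lost without any 1 of the 4 STING-deficient libraries, and over all 13 libraries left out in turn Sigirr lost its call in 9 cases and Lyz2 in 11. Both held with TMM scaling (adjusted p = 0.00719 for Sigirr and 0.00533 for Lyz2). TMM scaling also called Txnip, Igf2r and Trp53 higher, at 0.77, 0.59 and 0.56, where the deposited scale gave 0.57, 0.39 and 0.36 (adjusted p = 0.142, 0.112 and 0.168).

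Proliferation genes and fibroblast and matrix genes did not pass the test on the deposited scale. Limma called 0 of 7 proliferation genes (median -0.11, and 0.09 with TMM scaling; 0 at an unadjusted p under 0.05; 0 with edgeR and DESeq2). Median scaling called 2 of the 7 higher, beside 20.9% of all tested probes. Of 13 matrix genes limma called 0 (median -0.09, and 0.12 with TMM scaling, with 1 higher and 2 lower at an unadjusted p under 0.05). For the same genes edgeR called 1, DESeq2 3 and median scaling 3 higher, beside 11, 42 and 116 of all 555 tested probes. Fn1, the fibronectin gene, averaged 5870.2 ± 2283 and 4315 ± 848 (SD, n = 4 and n = 9, 0.39, adjusted p = 0.258).

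Several other genes were called. Il15, Cd69, Il7r, Ccr9, Cxcl14 and Mefv are in none of the lists. Tigit, Ccl24, Tlr6 and Irak2 belong to lists with 2 or 3 calls each, beside 10.5% of all tested probes. These were 2 of 11 inhibitory checkpoints, 2 of 12 T cell chemokines, 3 of 16 alternative macrophage genes and 2 of 20 Toll-like receptor genes. Il15, a cytokine that NK cells depend on and that interferon induces, had 19.7, 11.5, 13.4 and 24.9 in STING-deficient tumors, against 26.6, 35.2 and 57.8 as lowest, median and highest of wild-type tumors, with no overlap (-1.11, adjusted p = 0.00742). Cd69, an early activation marker, Il7r, the interleukin-7 receptor, and Tigit, an inhibitory receptor, were at 4.74 to 29.1 in STING-deficient tumors and fell by 1.48, 0.98 and 0.64 (adjusted p = 0.0425, 0.0469 and 0.0484), calls that TMM scaling ended for all 3. The T cell adhesion gene Cd2 averaged 57.6 ± 7.91 and 77.0 ± 23 (SD, n = 4 and n = 9, -0.36, adjusted p = 0.361). Further calls were Ccr9, Cxcl14, Ccl24, Tlr6, Irak2 and Mefv, chemokine, Toll-like receptor and inflammasome genes, with log2 differences between -1.41 and -0.48 and adjusted p between 0.0158 and 0.0484. All 6 of these calls were lost with TMM scaling.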

How the data were processed

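Total RNA of 21 whole tumors was measured on a NanoString panel of 750 probes, and 13 sham libraries were used here. The deposited values are a signal: molecule counts that the authors multiplied by 1 factor per library, as the values show, since all are whole multiples of 1 step within 0.1 step (steps of 0.65 to 1.08). The software, the control probes and any background step behind the factor are not given in the sources. Recovered counts summed to 256573 to 389302 per library.

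Values were tested as log2(value + 1) with limma 3.58.1 (R 4.3.3, trended and robust empirical Bayes, Benjamini-Hochberg), for the 555 of 750 probes at 20 or more in at least 4 of the 13 libraries. Hif1a, blank in 1 of the 13, was not fitted. Alternatives were other pseudocounts, filters, scalings and fits, each library left out, and edgeR 4.0.16 and DESeq2 1.42.0 on the recovered counts. Library measures were compared by exact permutation (scipy 1.17.1), where the smallest possible p is 0.0014, and figures used matplotlib 3.10.9. The scripts were tested on simulated data.

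Accessions of 727 probes matched the RefSeq gene table of GRCm38.p6. Probes of the Ifna, Klra and H2-Q families have near-identical copies and are uncertain. Genes were named by a rule: Tmem173, Tbk1 and Irf3 always (cGAS, also in the rule, has no probe), the 15 highest and 15 lowest differences among called probes, the 10 highest and 10 lowest among probes with a mean of at least 50 in the higher group, and, from each list, up to 4 called members by p or, with fewer than 2 called, up to 3 of the most abundant. This made 106 genes eligible, of which 58 are in the text, and 38 more in the text were chosen after their values were seen. Some panel genes are not reported here. Members and lists were chosen with earlier results of these data known.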

Additional observations from a re-analysis of the deposited data

Results flagged for a closer look

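In 9 of 202 groups of libraries checked, 1 library stood apart from the rest of its group by the gap to its nearest neighbour relative to the whole range (Dixon's 95% value). Chance gives about 1 in 20 groups. Among STING-deficient libraries, Ifit1 was lowest in replicate 2 at 5.41, Oasl1 was highest in replicate 1 at 29.1, Ifi35 was highest in replicate 1 at 347, S100a8 was highest in replicate 3 at 2254 and Cd2 was lowest in replicate 3 at 45.8. Among wild-type libraries, Kdr was lowest in replicate 9 at 23.8, Ifi27 was lowest in replicate 8 at 452, Irf3 was lowest in replicate 5 at 175.0 and Cd163 was highest in replicate 4 at 2936.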

How the results depend on the processing

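No probe called lower was called higher under any setting, and the interferon-stimulated list kept 18 or more of its 25 calls in each. The numbers of probes higher and lower were 2 and 58 as reported, 11 and 37 with TMM scaling, 116 and 29 with median scaling, 0 and 19 with all 21 libraries in the fit, 6 and 107 with array weights, 11 and 36 with edgeR, and 42 and 50 with DESeq2. The number higher was 1 without a trend and 1 with a pseudocount of 20. Leaving out 1 library gave 0 to 2 higher and 35 to 119 lower, the extremes being STING-deficient replicates 2 and 1. List medians (log2) also moved. With a pseudocount of 20 the median was -1.26 for interferon-stimulated genes and -0.37 for endothelial markers. With TMM scaling it was -0.042 for all probes, 0.012 for the interferon and JAK-STAT list, 0.053 for macrophage markers and 0.086 for proliferation. With edgeR these were -0.026, 0.011, 0.069 and 0.12, and endothelial markers -0.36. With DESeq2 they were 0.025, 0.064, 0.11 and 0.17, with endothelial markers at -0.30, inflammatory genes at -0.042, complement at 0.21 and matrix genes at 0.17. With median scaling they were 0.22, 0.27, 0.32 and 0.34, with interferon-stimulated genes at -1.35, neutrophil markers at -0.65, endothelial markers at -0.12, MHC class I at -0.025, T cell markers at 0.041, inflammatory genes at 0.16, sensing at 0.30, complement at 0.30 and matrix genes at 0.38.

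Differences of genes uncalled on the deposited scale changed sign in some settings, and with median scaling Irf3 and Ifitm2 were called higher. With TMM, edgeR, DESeq2 and median scaling, in that order, Tmem173 was at 0.093, 0.087, 0.14 and 0.35, Irf3 at 0.16, 0.16, 0.21 and 0.42, Ifitm2 at 0.13, 0.14, 0.19 and 0.40, and Irf1 at 0.016, 0.038, 0.081 and 0.28. With median scaling Mmp9 was at 0.21, Cd2 at 0.10 and H2-D1 at 0.022, and Mmp9 was at 0.042 with array weights. With 1 library left out, Irf1 ran from -0.47 to 0.030 (above 0 without STING-deficient replicate 2), Mmp9 from -0.58 to 0.20 (above 0 without replicate 4), Cd74 from -0.26 to 0.75 and H2-Ab1 from -0.41 to 0.66 (both below 0 without replicate 1). The difference in the median probe ran from -21.6 to -13.0 over libraries left out, and lost its call without STING-deficient replicate 2 or 4 (adjusted p = 0.0909 for each, exact permutation). The share of the 5 highest probes differed by 1.78 to 4.52 percentage points, passing only without STING-deficient replicate 3. The cause was not tested.

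The replicate numbers shared by the groups were tried as a block, over numbers 1 to 4. Deviations of same-numbered libraries correlated at 0.67, 0.40, 0.05 and -0.19, and 2 of the 4 STING-deficient libraries correlated best with their own number. These 4 correlations are too few to decide whether the numbers pair the samples, and the reported fit has no block. The replicate block gave 0 probes higher and 35 lower, of which 29 were among the 58, with a proliferation median of 0.013 and H2-Ab1 at -0.14. With 4 STING-deficient libraries, 1 library can end a call near the threshold, and values under 20 rest on a few molecules.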
